A study of Mus musculus with 19 samples.

Results

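The genes described here encode ion channels of the plasma membrane and the calcium-release channels of the endoplasmic reticulum, and the measurement is the extrachromosomal circular DNA (eccDNA) that carried parts of them. They were chosen by symbol alone: mouse genes whose symbol begins with Kcn (potassium channels), Cacn (voltage-gated calcium channels), Scn and a digit (sodium channels), Hcn and a digit (hyperpolarization-activated channels), Trpa, Trpc, Trpm or Trpv and a digit (transient receptor potential channels, TRP), Ryr or Itpr (calcium release) or Clcn (chloride channels and exchangers). Of the 8336 genes in the table, 87 matched. These were 43 potassium channel genes, 14 genes of voltage-gated calcium channels, 5 of calcium-release channels, 8 of sodium channels and 15 TRP, HCN or chloride genes. The last 2 matched the symbol pattern without encoding a channel subunit: Kcnq1ot1, a non-coding RNA gene within Kcnq1, and Trpc4ap, a gene for a protein that associates with a TRP channel.

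In neurons, voltage-gated sodium channels start the action potential and potassium channels end it and set the firing pattern. Voltage-gated calcium channels couple the action potential to transmitter release and to signalling in the cell body, and ryanodine and IP3 receptors release calcium from internal stores. Excitability and calcium handling of motor neurons are long-standing subjects of ALS research. An eccDNA of such a gene is a circularised piece of chromosomal DNA. It does not report transcription of the gene or the amount of the channel.

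EccDNA was measured in the cervical spinal cord of 9 male B6.Cg-Tg(SOD1*G93A)1Gur/J mice (ALS, samples A1 to A9) and 10 male C57BL/6J mice (Control, samples C1 to C10), with 1 library per animal. The ALS mice constitutively overexpress a mutant human SOD1 gene, had motor symptoms of severity score 1 or 2 and were 18 to 21 weeks old, and animals without symptoms by that age were not included. The controls were matched for sex and age and do not carry the transgene, so that the mutation and the overexpression of human SOD1 cannot be told apart. The libraries hold DNA of whole tissue, which gives no cell type markers to check, and an eccDNA of fewer cells cannot be told from fewer eccDNAs per cell.

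The value of a gene, log2(PpGC + 1), is the logarithm of the split reads that join the ends of all eccDNAs overlapping that gene, scaled up so that every gene counts as if it were as long as the longest gene. A value of 0 means that the table lists no eccDNA with at least 2 split reads for the gene. The scale depends on length: 2 split reads give 3.14 for the long Kcnip4, 5.73 for Scn1a and 10.86 for the short Kcnf1. The table gives no circle coordinates, so that the exons, introns or UTRs on the circles are not known here. Gene positions are those of GENCODE release M21 on mm10, which placed all 87 genes.

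The libraries of the groups differed in their load before any single gene was considered. An eccDNA was found on 694 to 2204 genes per ALS sample (1301 ± 459, mean ± SD, n = 9) and on 57 to 723 genes per control sample (243 ± 208, n = 10). The recovered split reads on genes ranged from 73211 to 389825 in ALS and from 3583 to 122908 in controls. The number of reads per library is not in the table, and its part in the results was not tested. The ALS libraries also differed in how their genes were spread over the chromosomes. The share on chromosome 2 lay between 7.65% and 9.44% in all 9, whereas the share on chromosome 1 ran from 1.60% (A2) to 13.8% (A4) and that on chromosome 14 from 1.10% (A9) to 7.51% (A8). Chromosomes 1, 10 to 16, 18 and X varied between the ALS libraries in this way, and 34 of the 87 channel genes lie there. Controls were uneven as well: their share on chromosome 1 ran from 2.83% (C3) to 16.4% (C10), C1 had 0.42% of its genes on chromosome 10, and C8 had none on chromosome 12. Whether zeros on these chromosomes are in part missing values was not tested.

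Channel genes followed the load. In ALS, 12 to 36 of the 87 carried an eccDNA per sample (21 ± 7.47, n = 9), and in controls 1 to 10 did (4.3 ± 2.58, n = 10). All 9 ALS samples lay above the highest control, C1. The ratio of the means was 4.88 for the channel genes and 5.35 for all genes. Among the genes with an eccDNA in a sample, channel genes made up 1.63% ± 0.24 in ALS (n = 9) and 2.19% ± 1.15 in controls (n = 10), and these ranges overlapped. Counting samples and genes together, 189 of the 783 possible ALS values (24.1%) and 43 of the 870 control values (4.94%) were above 0, beside 15.6% and 2.92% over all genes.

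**Figure D1:**
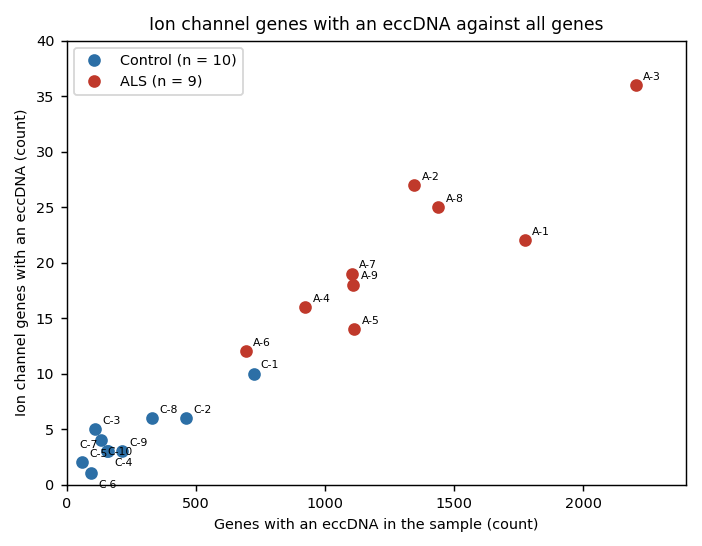
Number of ion channel genes with an eccDNA (vertical axis, of 87) against the number of all genes with an eccDNA (horizontal axis, of 8336) in each sample, with 10 control samples in blue and 9 ALS samples in red. The ALS samples hold 12 to 36 channel genes and the controls 1 to 10, and the points of both groups rise along the number of all genes.

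Most channel genes were seen in few animals. For 38 of the 87 genes, a single sample held an eccDNA (43.7%, beside 66.2% of all genes). It was present in ALS samples only for 55, in control samples only for 7 and in both groups for 25, beside 6255, 910 and 1171 of all 8336 genes. In ALS, 15 genes had an eccDNA in 5 or more of the 9 animals (17.2%, beside 3.13% of all genes), whereas in controls none exceeded 3 of 10. No gene had an eccDNA in more than 7 ALS samples, so that at least 2 ALS animals overlapped the controls at 0 for every one of them. Split reads could be recovered as whole numbers for 84 of the 87 genes. Where an eccDNA of these was present, the median was 9 split reads in ALS and 5 in controls, and 32 of 176 ALS values (18.2%) were at the minimum of 2 split reads.

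**Figure D2:**
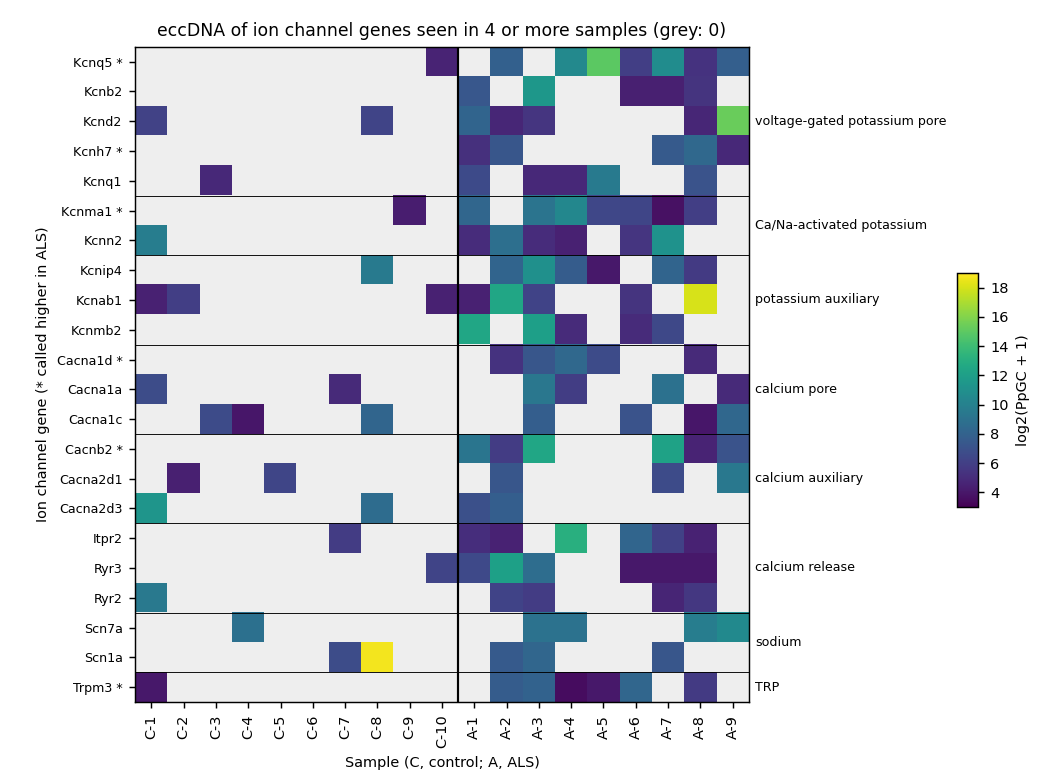
Deposited log2(PpGC + 1) of the 22 channel genes with an eccDNA in 4 or more of the 19 samples (rows, grouped by channel class) in the 10 control samples (C) and 9 ALS samples (A), with 0 in grey and an asterisk for the 6 genes called higher in ALS. Values above 0 fill 109 ALS cells and 26 control cells, and the brightest cell is Scn1a in C8, at 18.73.

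To ask which channel genes differed between the groups, each gene of the table was tested by the methods' t-test (two-sided, equal variances), and a gene was called when the means differed by more than 1 and p was under 0.01. Of the 87 channel genes, 6 were called higher in ALS (6.90%), beside 1.33% of all 8336 genes. They were Kcnma1, Kcnq5 and Kcnh7 of the potassium channels, Cacna1d and Cacnb2 of the calcium channels, and Trpm3. None was called lower, beside 0% of all genes; no channel gene and no gene of the table had a lower mean in ALS at an unadjusted p under 0.05 by the methods' t-test, the exact permutation test or limma. All 6 are over 200 kb long. Among the channel genes of that length 6 of 30 were called (20%), beside 9.61% of all genes over 200 kb. Of the 57 shorter channel genes none was called, beside 0.16% of all genes up to 200 kb. After Benjamini-Hochberg adjustment over all genes no channel gene remained under 0.05 (lowest adjusted p = 0.278 by the methods' t-test and 0.475 by the exact permutation test). The difference was above 0 for 78 of the 87 genes, beside 86.5% of all genes, with a median difference of 1.29 log2 units for the channel genes and 1.19 for all genes. With the number of genes carrying an eccDNA in each sample as a covariate, 44 of the 87 differences were above 0, beside 52.8% of all genes, with a median of 0.083 for the channel genes and 0.34 for all genes. Only C1 (723 genes) reached the range of the ALS loads (694 and above), the next control had 462, and load and group correlated at r = 0.85 over the 19 samples. Differences adjusted for the load are therefore extrapolated between groups that hardly overlap in it, and load and group can hardly be told apart.

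**Figure D3:**
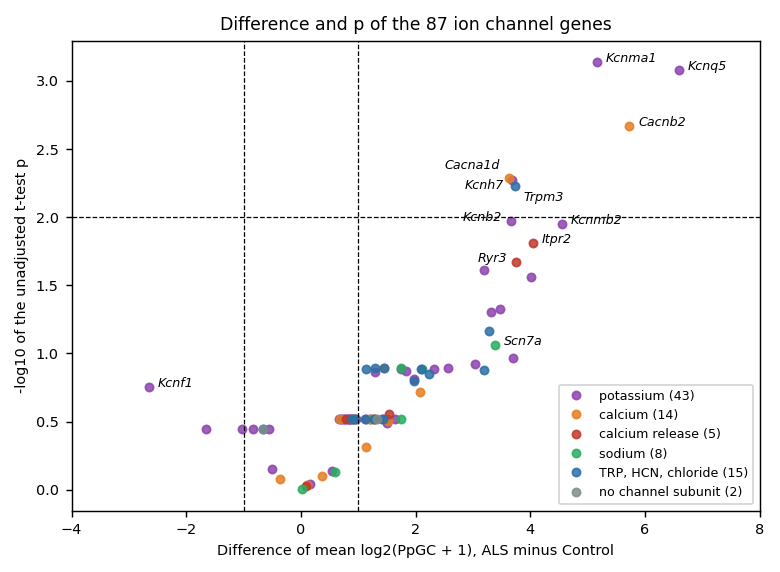
Difference of mean log2(PpGC + 1), ALS minus Control, against -log10 of the unadjusted p of the methods' t-test for the 87 genes, coloured by channel family, with dashed lines at differences of 1 and -1 and at p = 0.01. The 6 genes called higher stand at the upper right, from Trpm3 at p = 0.00595 to Kcnma1 at p = 0.000728, and no gene lies past both thresholds on the left.

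Potassium channels are the largest family, and 3 of the 43 genes were called higher in ALS (6.98%) and none lower. Over all genes 1.33% were called higher and 0% lower. All 3 are over 200 kb long, a length at which 9.61% of all genes were called. Kcnma1 (chr14:23289431-24014491, 725 kb) encodes the pore of the large-conductance channel that opens with calcium and depolarization together. Its values in ALS were 10.38 in A4, 9.15 in A3, 8.26 in A1, 6.44 in A5, 6.33 in A6, 5.96 in A8 and 3.73 in A7, with 0 in A2 and A9. In controls it was 0 except for 4.27 in C9. Thus 7 of 9 ALS animals and 1 of 10 controls carried an eccDNA of the gene, and only A7 among the 7 lay below that control. The means were 5.58 ± 3.71 (SD, n = 9) and 0.43 ± 1.35 (n = 10), a difference of 5.16 (the methods' t-test p = 0.000728, exact permutation p = 0.00191, adjusted p = 0.278). The gene was no longer called with samples scaled to equal totals (difference 3.63, exact permutation p = 0.0311) or with the load (genes carrying an eccDNA, per sample) as a covariate (difference 3.54, p = 0.159). On chromosome 14, A9, with the smallest share of its genes there, was at 0, A7 with the next smallest (1.70%) carried the gene, and A2, also at 0, had 4.34% of its genes there.

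Kcnq5 (chr1:21398403-21961942, 564 kb) encodes a subunit of the slow potassium channels that carry the M-current and dampen repetitive firing. Its ALS values were 14.98 in A5, 10.81 in A7, 10.55 in A4, 7.94 in A2, 7.84 in A9, 6.00 in A6 and 5.33 in A8, with 0 in A1 and A3, and the controls were at 0 except for 4.62 in C10. Every one of the 7 ALS values above 0 lay above that control. The means were 7.05 ± 4.93 (n = 9) and 0.46 ± 1.46 (n = 10), the largest difference of all 87 genes at 6.59 (exact permutation p = 0.00131, the methods' t-test p = 0.000837, adjusted p = 0.278). The value in A5 stood for 4118 split reads, and those of A6 and A8 for 8 and 5. Part of the signal in A7 was shared with Gm38243, a gene model within Kcnq5, which had 224 split reads there beside 228 for Kcnq5. Kcnq5 stayed called with equal totals, at a difference of 5.26, and with the load as a covariate, at 13.5, a value beyond the whole ALS mean. With a pseudocount of 100 in place of 1 the difference was 2.33 and the call ended (the methods' t-test p = 0.0153), as it did for the other 5 called genes. At that pseudocount the exact permutation p was 0.000714 for Kcnq5, 0.00131 for Kcnma1 (difference 1.22) and 0.00310 for Cacnb2 (1.83). The differences of Kcnh7, Cacna1d and Trpm3 were then below 1. The library with the smallest share on chromosome 1, A2, carried an eccDNA of the gene. So did A4 and A7, which had the largest ALS shares (13.8% and 10.3%). A1 and A3, at 0, had 5.33% and 6.45% of their genes there. C10, the only control above 0, had the largest control share (16.4%). The part of these shares in the values was not tested.

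Kcnh7 (chr2:62693414-63184287, 491 kb) encodes a neuronal channel of the ether-a-go-go-related family. It was above 0 in 5 ALS animals, at 8.39 in A8, 7.51 in A7, 7.27 in A2, 5.21 in A1 and 4.81 in A9, and at 0 in the other 4 and in all controls. The ALS mean was 3.69 ± 3.67 (n = 9, the methods' t-test p = 0.00534, adjusted p = 0.382, exact permutation p = 0.0108). An exact p of 0.0108 is what 5 ALS animals above 10 controls at 0 give whatever the values. Without A1, A2, A7, A8 or A9 in turn the gene was no longer called, with p of the methods' t-test from 0.0103 to 0.0120. With the load as a covariate the difference was 2.89 and the call ended (p = 0.214).

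The other potassium channel genes did not pass the thresholds, and several lay close to them. Kcnmb2 (298 kb), an auxiliary subunit that inactivates the large-conductance channel formed by Kcnma1, was at 12.46 in A1, 12.04 in A3, 6.50 in A7 and 4.94 in A4 and A6, and at 0 in every other sample. Its ALS mean was 4.54 ± 5.07 (n = 9, exact permutation p = 0.0108, the methods' t-test p = 0.0112). The pair of high values stood for 379 and 282 split reads and the low ones for 2 to 6. Kcnmb2 passed the thresholds by limma (p = 0.00414), and with the load as a covariate its difference was -0.88. Kcnma1 and Kcnmb2 were both present in A1, A3, A4, A6 and A7, and Kcnma1 without Kcnmb2 in A5 and A8. Since Kcnma1 was present in 7 of 9 ALS animals, overlap is likely for any gene, and joint presence was not tested. Kcnb2, a delayed rectifier subunit, likewise had values above 0 in 5 ALS animals and no control, between 4.41 and 11.46 (exact permutation p = 0.0108), and passed the thresholds by limma (p = 0.00636). Kcnip4, which binds the channels of the A-type current, Kcnq1, best known from heart and ear, and Kcnn2, a small-conductance calcium-activated channel, each had an eccDNA in 5 or 6 ALS animals and in 1 control. Kcnd2, the pore of the A-type current, was above 0 in 5 ALS animals and in C1 and C8, and its value of 15.34 in A9 stood for 4823 split reads, the most of any channel gene in an ALS library among the 84 genes whose split reads could be recovered as whole numbers. Kcnab1, an auxiliary subunit that speeds inactivation, spanned 4.44 to 18.06 in 5 ALS animals and 4.44 to 5.98 in 3 controls (exact permutation p = 0.117), and its difference was -1.62 with the load as a covariate. Inward rectifiers (4 genes) and channels with 2 pore domains (4 genes) were seen in at most 2 ALS animals each.

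**Figure D4:**
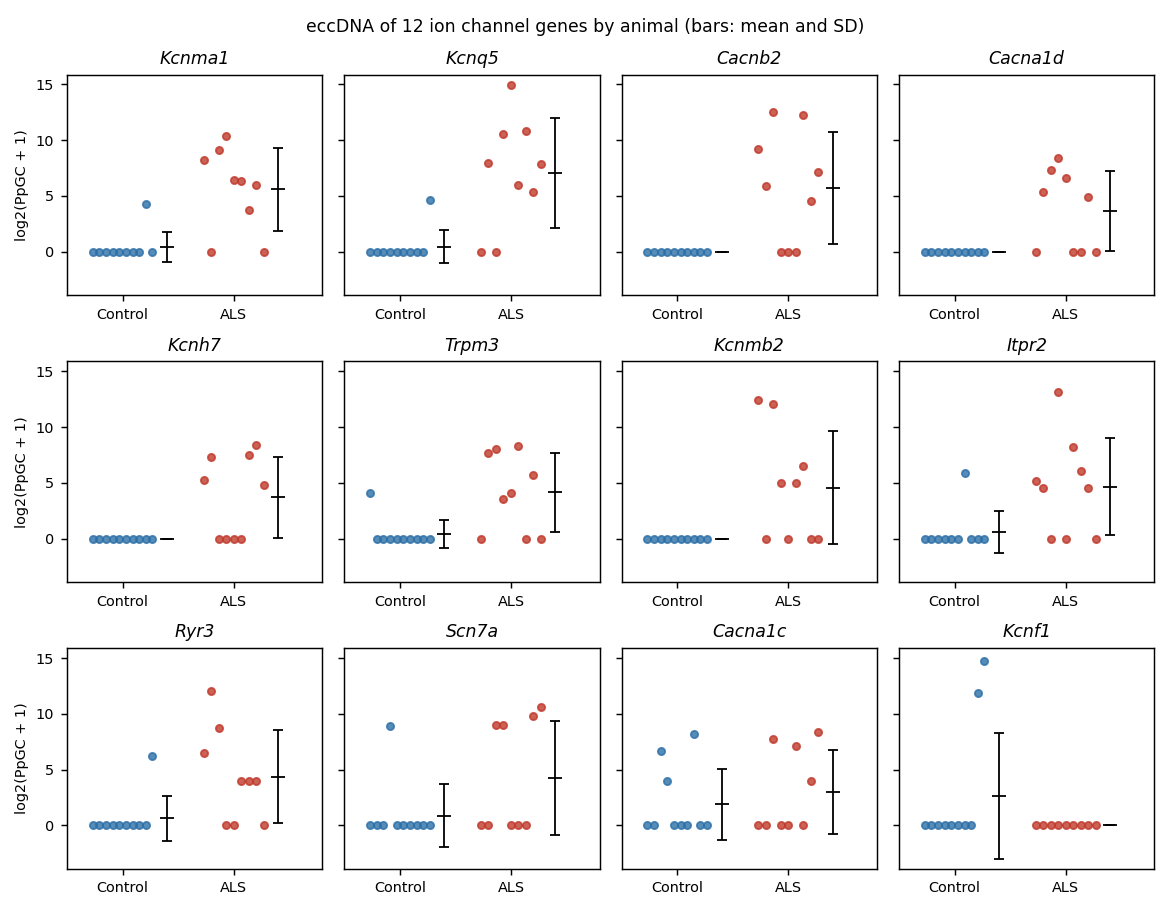
Deposited log2(PpGC + 1) of 12 channel genes, with 1 point per animal (blue, 10 controls; red, 9 ALS) and the mean and SD as a bar beside each group. Cacnb2, Cacna1d, Kcnh7 and Kcnmb2 are at 0 in all controls, Kcnf1 is above 0 in 2 controls only, and each gene has at least 2 ALS animals at 0.

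Voltage-gated calcium channels consist of a pore subunit and auxiliary subunits. Of the 9 pore genes 1 was called higher in ALS, as was 1 of the 5 genes counted as auxiliary by symbol, with none lower. These 5 include Cacng3. Over all genes 1.33% were called higher and 0% lower. Both called genes are over 200 kb long, a length at which 9.61% of all genes were called. Cacnb2 (chr2:14603088-14987908, 385 kb) encodes a cytoplasmic beta subunit that brings the pore to the membrane. Its values were 12.50 in A3, 12.22 in A7, 9.20 in A1, 7.12 in A9, 5.87 in A2 and 4.59 in A8, with 0 in A4, A5, A6 and in all 10 controls. It had an eccDNA in 6 of 9 ALS animals, more than any other channel gene that was at 0 in every control. The ALS mean was 5.72 ± 5.02 (n = 9, exact permutation p = 0.00310, the methods' t-test p = 0.00214, adjusted p = 0.382). The 2 split reads in A8 were also counted for Gm13269, a gene model that overlaps Cacnb2. With equal totals it stayed called at a difference of 5.01, and with the load as a covariate the difference was -0.81.

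Cacna1d (chr14:30039939-30491455, 452 kb) encodes the pore of an L-type channel that opens at comparatively low voltage. It was at 8.43 in A4, 7.31 in A3, 6.63 in A5, 5.33 in A2 and 4.93 in A8, and at 0 in the other 4 ALS animals and in all controls. The ALS mean was 3.63 ± 3.59 (n = 9, the methods' t-test p = 0.00516, adjusted p = 0.382), and the exact permutation p was again 0.0108. These values stood for 35, 16, 10, 4 and 3 split reads, and the 3 reads of A8 were the same as those of Gm18072, which overlaps the gene. The call also ended with equal totals (difference 2.65) and with the load as a covariate (2.05, p = 0.354). Leaving out A2, A3, A4, A5 or A8 in turn ended the call (p of the methods' t-test from 0.0102 to 0.0117). The 2 libraries with the smallest share of their genes on chromosome 14, A9 and A7, were both at 0.

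Of the other L-type pore genes, Cacna1f and Cacna1s were above 0 in A3 alone. Cacna1c, the pore of the other main neuronal L-type channel, was above 0 in 4 ALS animals (3.96 to 8.36) and in 3 controls (3.96 to 8.19), with means of 3.02 ± 3.78 (n = 9) and 1.88 ± 3.20 (n = 10; exact permutation p = 0.486). Its difference of 1.14 ran from 0.47 to 1.84 when each sample was left out, and was -0.093 with equal totals. Cacna1a, the pore of the channel that drives release at motor nerve terminals, was above 0 in 4 ALS animals and in C1 and C7 (exact permutation p = 0.211), with a difference of -1.16 once the load was a covariate. Among the auxiliary genes, Cacna2d1 was present in 3 ALS animals and 2 controls. Cacna2d3, the longest calcium channel gene at 817 kb, was present in 2 animals of each group, and its mean was 1.63 ± 3.24 in ALS (n = 9) and 2.00 ± 4.26 in controls (n = 10; exact permutation p = 0.861). Cacng3, an auxiliary subunit of AMPA receptors by function, had 2 split reads in A2 and in A5.

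Of the 5 calcium-release genes none was called in either direction, beside 1.33% higher and 0% lower over all genes. Itpr2 (chr6:146108299-146502223, 394 kb), an IP3 receptor, was at 13.11 in A4, 8.20 in A6, 6.10 in A7, 5.12 in A1 and 4.56 in A2 and A8, and at 5.84 in C7. The ALS mean was 4.63 ± 4.35 (n = 9) and the control mean 0.58 ± 1.85 (n = 10; the methods' t-test p = 0.0155, exact permutation p = 0.0126), a difference of 4.04. It passed the thresholds by limma (p = 0.00706) and with the load as a covariate (difference 8.31, p = 0.00620). That adjusted difference of Itpr2 is a value beyond the whole ALS mean. With the same covariate Ryr3 and Ryr2 were at -0.40 and -3.56. Ryr3 (chr2:112631355-113217096, 586 kb), the ryanodine receptor form of brain and other tissues, was at 12.07 in A2, 8.71 in A3, 6.52 in A1 and 4.01 in A6, A7 and A8, and at 6.26 in C10 (means 4.37 ± 4.19, n = 9, and 0.63 ± 1.98, n = 10; exact permutation p = 0.0126). In both genes 6 ALS animals carried an eccDNA, and the single control lay within their range. The 3 lowest values of Ryr3 were at the minimum of 2 split reads. Ryr2, the main form of heart and brain, was present in 4 ALS animals at 4.65 to 6.19, all below its value of 9.48 in C1 (exact permutation p = 0.271). Ryr1, the skeletal muscle form, was at 7.52 in A5 and in C1 alike, and Itpr3 was seen in A3 alone.

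The 8 sodium channel genes were called in neither direction, beside 1.33% higher and 0% lower over all genes. Scn7a (chr2:66673425-66784914, 111 kb), an atypical family member that senses the sodium concentration, was at 10.60 in A9, 9.77 in A8 and 9.02 in A3 and A4, beside 8.90 in C4 (means 4.27 ± 5.08, n = 9, and 0.89 ± 2.82, n = 10; exact permutation p = 0.0542). All 5 values lay close together and stood for 12 to 39 split reads. Scn7a, Scn9a, Scn1a, Scn2a and Scn3a lie side by side on chromosome 2 within 1328 kb, and an eccDNA of at least 1 of these 5 genes was found in 7 ALS animals and 4 controls. A3 alone carried 4 of the 5. Scn1a, the sodium channel of fast-spiking interneurons, held the highest value of all channel genes, in a control: 18.73 in C8, from 16653 split reads. It was above 0 in 3 ALS animals (7.30 to 8.29) and at 6.72 in C7. Scn2a was at 10.13 in A3 and 8.92 in A1 (exact permutation p = 0.211). With the load as a covariate its difference was -4.71 (p = 0.01004, just above the threshold of 0.01).

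Among the TRP, HCN and chloride genes, 1 of 15 was called higher and none lower, beside 1.33% and 0% of all genes. The called gene is over 200 kb long, a length at which 9.61% of all genes were called. Trpm3 (chr19:22139046-22995410, 856 kb) encodes a cation channel opened by heat and by the steroid pregnenolone sulfate. Its values were 8.28 in A6, 8.02 in A3, 7.63 in A2, 5.72 in A8, 4.05 in A5 and 3.51 in A4, with 0 in A1, A7 and A9, and 4.05 in C1 was the only control value above 0. A5 and C1 thus had the same value, from 3 split reads each, and A4 lay below both. The means were 4.13 ± 3.51 (n = 9) and 0.40 ± 1.28 (n = 10; the methods' t-test p = 0.00595, adjusted p = 0.382, exact permutation p = 0.0102). The call was lost without A2, A3, A6 or A8 in turn, at a p of the methods' t-test of up to 0.0134, and it also ended with equal totals (difference 2.94) and with the load as a covariate (2.09, p = 0.367). Trpm1, a channel of retinal bipolar cells and melanocytes, was at 14.63 in A3, 8.07 in A8 and 6.85 in A7 (exact permutation p = 0.0867), and its difference adjusted for the load was -3.34. Trpc4 had 2 split reads in A4 and in A8 (exact permutation p = 0.211). Of the 15 genes, 13 were seen in ALS samples only, Trpm6 in a control only and Trpm3 in both groups. Of all 8336 genes, these numbers were 6255, 910 and 1171. Hcn4, whose channel carries a pacemaker current, was above 0 in A5 alone.

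Each called gene was above 0 in 5 to 7 of the 9 ALS animals, which the call itself requires in part. A8 carried an eccDNA of all 6, at 2 to 37 split reads each. A2 carried 5, and A1, A6 and A9 carried the fewest with 3. In controls, C1, C9 and C10 carried 1 each and the other 7 none. A8 was at 0 for Kcnmb2, and the highest values of the called genes were spread over A3, A4, A5, A6 and A8.

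Only 9 channel genes had a lower mean in ALS than in controls, by 2.66 at most. That largest gap was Kcnf1 (chr12:17172100-17176888, 4.79 kb), a silent subunit that modifies other potassium channels and the shortest of the 87 genes. It was at 14.71 in C10 and 11.86 in C9 and at 0 in all ALS animals (control mean 2.66 ± 5.64, n = 10; exact permutation p = 0.474, the methods' t-test p = 0.177), and the difference was -1.32 without C10 and -1.63 without C9. These values stood for 29 and 4 split reads, lifted by the scaling for its short length. Kcnj11, the pore of the potassium channel gated by ATP, was at 16.52 in C1 alone. Kcnip3, a calcium sensor, was at 8.41 in C3 alone. Kcnq1ot1 was at 6.59 in C3, from the 2 split reads that were also counted for Kcnq1 in that animal. With 1 sample above 0, the exact permutation p of such a gene is 1.

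Channel genes were long, and length went with recurrence. Their median length was 116 kb, beside 49.3 kb over the placed genes, and the median of the 6 called genes was 527 kb. Across the 87 genes, gene length and the number of ALS samples with an eccDNA had a Spearman correlation of 0.68, beside 0.52 across 8088 genes, and for controls the values were 0.34 and 0.22. This is a correlation across genes of the same 19 libraries, and genes are not independent replicates. By length, 8 of the 9 channel genes over 500 kb had a difference above 0, beside 97.0% of all genes of that length. Their median difference was 3.73, beside 3.10 for all genes of that length. Channel genes of 200 to 500 kb had a median difference of 2.08 beside 1.82. For those up to 200 kb it was 0.96 beside 1.14. Of the 30 channel genes over 200 kb, 15 had an eccDNA in 5 or more ALS animals, and of the 57 shorter ones none had. Of all genes, 22.9% of those over 200 kb and 0.27% of the shorter ones did.

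**Figure D5:**
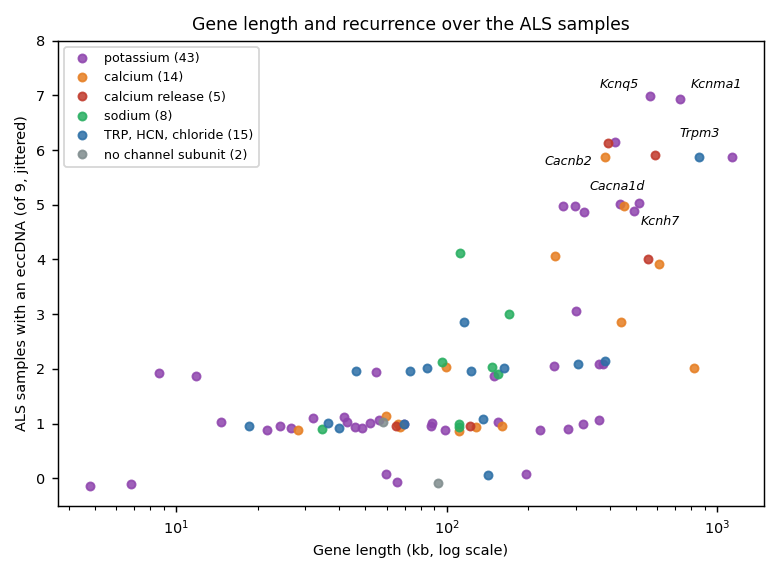
Number of ALS samples (of 9, jittered vertically) with an eccDNA against gene length in kb (log axis) for the 87 genes, coloured by channel family, with the 6 called genes named. Genes present in 5 or more ALS samples are all over 200 kb long, and the shortest genes at the left were present in 0 to 2.

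In base composition, the called genes had a median GC content of 40.4% over the gene body (36.6% to 44.9%), the other channel genes 45.7% and all placed genes 43.3%. All channel genes over 200 kb had a median of 41.3%, beside 41.1% for all genes of that length. The 87 genes lay on all 19 autosomes and on X, with 15 on chromosome 2, more than on any other. Of the 6 called genes, Cacnb2 and Kcnh7 lie on chromosome 2, where the share of genes was even between the ALS libraries, and Kcnma1, Cacna1d and Kcnq5 on chromosomes where it was not. Trpm3 lies on chromosome 19, where the share ran from 0.943% to 2.98%. The part of that unevenness in their values was not tested.

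Reads of a circle count for each gene that it overlaps. For 16 of the 87 genes, another gene of the table overlapped their span and had an eccDNA. In 6 of the 232 values above 0 the overlapping gene had the same number of split reads, so that the channel gene and its neighbour cannot be told apart there.

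A list of 75 genes that act with these channels was set beside them: auxiliary proteins, store-operated and other cation channels, calcium pumps and exchangers, calmodulin targets and anchoring proteins. The table held 44 of them, of which 3 were called higher in ALS (6.82%, beside 1.33% of all genes) and none lower. All 3 are over 200 kb long (231, 724 and 910 kb), a length at which 9.61% of all genes were called. They were Dpp10 and Dpp6, subunits of the A-type potassium channels that Kcnd2 and Kcnip4 belong to, and Unc80, a subunit of the sodium leak channel complex. Dpp10 was above 0 in 8 ALS animals and 1 control (difference 5.21, exact permutation p = 0.000444, adjusted p = 0.217), Dpp6 in 7 and 2 (3.92, exact permutation p = 0.00586, adjusted p = 0.382) and Unc80 in 5 and 0 (4.11, exact permutation p = 0.0108, adjusted p = 0.382), the adjusted values being those of the methods' t-test. Ank2, an anchor of channels in the axon, was present in 6 ALS animals and 1 control and did not pass the thresholds (difference 3.36, exact permutation p = 0.0388). The sodium-calcium exchanger gene Slc8a1 was present in 4 and 1 (4.14, exact permutation p = 0.0542). The median difference over the 44 was 1.24 log2 units, beside 1.19 over all genes.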

How the data were processed

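Exonuclease V removed linear DNA from 400 ng of DNA per animal over 7 days, and the circles were amplified by rolling circle amplification (RCA) for 48 h. The authors mapped paired 150 bp reads to mm10 with Circle_Finder, merged eccDNAs within 10 bp, removed those with fewer than 2 split reads and mitochondrial DNA, intersected the rest with GENCODE genes by bedtools, which the submitters' processing notes also name, and deposited log2(PpGC + 1) per gene and animal. These log2 values carry a scaling for the length of a gene but none for the depth of a library. The GENCODE release is not given in the sources used here. RCA amplifies small circles preferentially, so that read numbers do not count molecules, and the depth of each library is not in the table.

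The values were used as deposited, for 8336 genes in 19 samples with 0 columns of other samples. Genes were matched by unique name to GENCODE M21. With the length scaling removed, split reads were whole (tolerance 0.02) for 98.9% of values above 0 of the placed genes and for all but 3 channel genes (Kcnab1, Cacna1a and Cacna1c). Calls used the thresholds of the study's methods, a difference above 1 and Student p under 0.01, two-sided here; they were computed anew from the table and are not the authors' list. Single genes had a two-sided exact permutation test over the 92378 ways to assign 9 of 19 samples, on the absolute difference of means. Adjusted p-values are Benjamini-Hochberg over all genes. Animals of 1 group shared at most 13.5% of their genes with an eccDNA. Alternatives were limma, the exact test, adjustment, a replicate block, p under 0.001, a one-sided p, the load as covariate, equal totals, presence or absence, a pseudocount of 100, no length scaling, at least 3 samples, chromosomes 2 to 9 and X, higher minima and leaving out each sample. Named were Cacna1d, Cacnb2, Scn7a and Kcnf1, Itpr2 and Kcnmb2, every called gene, the 3 genes of smallest p in each family, the 5 of most negative difference and the 5 present in most controls. Others were named after their values were seen, and some that the rule names are not reported here. The genes, lists and tests were chosen with earlier results of these data known. Scripts ran in Python 3.11.15 (NumPy 2.4.6, pandas 2.3.3, SciPy 1.17.1, matplotlib 3.10.9, pysam 0.24.0) and R 4.3.3 with limma 3.58.1 and were tested on simulated data. No sequence is printed, since the table holds no circle coordinates.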

Additional observations from a re-analysis of the deposited data

Results flagged for a closer look

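Within each group, the highest or lowest of the named genes' values and of the counts per sample was compared with its neighbour (Dixon's criterion), in 52 groups of values. Chance alone flags about 1 in 20 groups of normally distributed values. The values here are mostly 0 or small counts, so that this rate does not hold for them. Of the 14 that stood apart, 10 were a single control above 0 among 10, which the criterion always picks: Scn7a in C4 (8.90), Itpr2 in C7 (5.84), Kcnma1 in C9 (4.27), Kcnq5 in C10 (4.62), Trpm3 in C1 (4.05), Ryr3 in C10 (6.26), Ryr2 in C1 (9.48), Kcnj11 in C1 (16.52), Kcnip3 in C3 (8.41) and Kcnq1ot1 in C3 (6.59).

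The other 4 were counts per sample. A3, the ALS library with the most genes, carried an eccDNA of 17 potassium channel genes (6 to 11 in the other ALS samples) and of 6 sodium channel genes (0 to 3 in the others). A8 carried 6 TRP, HCN and chloride genes (2 to 4 in the others), and C1, the control with the most genes, carried 2 calcium-release genes (0 to 1 in the others).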

How the results depend on the processing

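Of the 6 genes called higher, limma and a one-sided p kept all 6 within 9 calls, with Itpr2, Kcnb2 and Kcnmb2 (beside 166 and 189 genes of the table, against 111), and the count stayed 6 without length scaling (beside 71 genes) and for genes seen in at least 3 samples. It was 3 by the exact permutation test and by presence or absence (Fisher's exact test), which called Cacnb2, Kcnma1 and Kcnq5 (beside 68 and 57 genes). Equal totals gave 3, Cacnb2, Kcnh7 and Kcnq5 (beside 60). The count was 2 at p under 0.001 (beside 29) and on chromosomes 2 to 9 and X (fewer genes). Benjamini-Hochberg adjustment of either p left 0 (beside 6 by the methods' t-test and 0 by the exact test). With a pseudocount of 100 the methods' t-test called 0 (beside 9). With the load as a covariate the count was 2, Kcnq5 and Itpr2 (difference 8.31), beside 26 genes higher and 84 lower over the table. For both genes the adjusted difference lay beyond the whole ALS mean. Of the genes named by the rule, these differences turned from above to below 0: Cacnb2 (-0.81), Kcnmb2 (-0.88), Ryr3 (-0.40), Ryr2 (-3.56), Scn2a (-4.71), Trpm1 (-3.34), Kcnab1 (-1.62) and Cacna1a (-1.16). Those already below 0 stayed there, with Kcnj11 at -5.70 and Cacna2d3 at -5.38. Cacna1c was at -0.093 with equal totals and Ryr2 at -0.047 with a pseudocount of 100. Cacna2d3 was at 0.022 as a difference of shares by presence, and from -1.13 to 0.67 when each sample was left out (0.67 without C1, 0.37 without C8). The cause was not tested. Equal totals moved the median difference of all genes from 1.19 to 1.05 (channel genes from 1.29 to 1.04), a pseudocount of 100 to 0.39 (0.40), no length scaling to 0.35 (0.50) and the covariate to 0.34 (0.083). Leaving out each sample gave 4 to 8 genes higher, 0 lower, and a difference in channel genes per sample of 14.8 to 17.8 around 16.7. That difference was 7.74 for values of at least 8 and 8.99 on chromosomes 2 to 9 and X. The latter setting counts fewer channel genes, 44 on chromosomes 2 to 9 and 2 on X out of 87. No setting called a channel gene lower.

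With the replicate number as a block the count was 2 (Cacnb2 and Kcnq5), beside 54 of 8336 genes. Same-numbered samples did not deviate together (r from -0.02 to 0.02 over 9 pairs, and 2 of 9 ALS samples correlated best with their own number), so that they share only a number. Values at 2 split reads are at the limit of what the table can show.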
